A study of Saccharomyces cerevisiae with 24 samples.

Results

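The genes described here are 8 stress-induced genes of budding yeast, YGP1, SPI1, YRO2, TMA10, DDR2, FMP45, FMP48 and CIS1, out of 5449 genes of the array. They were taken by symbol from a list drawn up because several of them had started lower before heat shock in cells that lack both PBF1 and PBF2, and had then risen more during heat shock. They were thus chosen by measured values, the log2 signals of that strain and of the wild type before and after heat shock, so all comparisons between those groups, and the rise in each strain, are given below as descriptions without a test. Only the comparisons of the single deletions with the wild type are tested for these genes, and those share the wild type arrays with the choice.

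RNA was measured on 24 Affymetrix Yeast Genome 2.0 arrays from 4 strains. The groups were the strain that the labels call delta-pbf1 delta-pbf2 (the double deletion), delta-pbf1 (the pbf1 deletion), delta-pbf2 (the pbf2 deletion) and BY4741, the laboratory wild type, each with 3 arrays at each of 2 times. Cultures grew at 25 °C in triplicate; one part of each was collected at 0 min and the other after 20 min at 37 °C. The labels do not say how many isolates of each deletion strain were used, so a change carried by 1 isolate and an effect of the deletion cannot be told apart. PBF1 and PBF2 carry the standard names TOD6 and DOT6.

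TOD6 and DOT6 are paralogous Myb-type repressors that bind a motif upstream of ribosome biogenesis genes, and they act when growth signals fall. The genes described here belong to the opposite side of the growth and stress balance of yeast. Many of them are induced through the stress factors Msn2 and Msn4, which enter the nucleus when protein kinase A activity drops, and YGP1, SPI1 and YRO2 are also targets of the weak acid factor Haa1. In bulk RNA, a lower signal can come from fewer cells that express a gene or from less RNA per cell, and these cannot be told apart.

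All 8 genes passed the filter on dim genes, which 5395 of the 5449 genes passed, and all 8 were above background on all 24 arrays. TOD6 was at background on all arrays of the double deletion and the pbf1 deletion. DOT6 was at background on all arrays of the pbf2 deletion and on 5 of 6 of the double deletion, where its signal was at most 11.9, against 778 to 1017 in the strains that keep it. The double deletion also differed in URA3, a gene of uracil synthesis used as a selection marker: its signal was 1737 to 1886 at 0 min and 695 to 922 at 20 min in the double deletion and at background on the 18 other arrays. Its part in the results below was not tested. All signals are in the deposited scale, on which each array has nearly the same trimmed mean, so a change in total RNA per cell is not visible.

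Before heat shock, YGP1, SPI1, YRO2, FMP48 and CIS1 were more than 4 times lower in the double deletion than in wild type cells, and for each of them the 3 double deletion arrays lay below all 9 arrays of the other strains. TMA10 and DDR2 were lower on every same-numbered pair of arrays, but their groups overlapped. FMP45 was near its wild type level. Double deletion arrays below all 9 others were thus seen for 5 of the 8 genes, beside 10.5% of all genes. This comparison chose the genes, so nothing is read from that count.

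The genes of the cell wall and plasma membrane come first. YGP1 (YNL160W) encodes a secreted glycoprotein related to a spore wall protein and is induced when nutrients run out. Its signal at 0 min was 294, 294 and 407 in the double deletion, 1122, 1025 and 1122 in the pbf1 deletion, 1596, 1674 and 2078 in delta-pbf2 cells and 1298, 1270 and 1504 in the wild type. The double deletion arrays did not overlap with any other strain. The log2 difference of the double deletion from the wild type was -2.05 ± 0.11 (limma standard error, n = 3 arrays each), a 4.13-fold lower signal.

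SPI1 (YER150W) encodes a small cell wall protein held by a lipid anchor and is known for tolerance of weak acids. Its signal was 214, 150 and 120 in the double deletion, 748, 392 and 630 in the pbf1 deletion, 529, 458 and 819 in delta-pbf2 cells and 771, 475 and 754 in the wild type. The highest double deletion array lay below the lowest array of the other strains, although the other strains themselves varied widely. The log2 difference was -2.06 ± 0.25, a 4.16-fold lower signal in the double deletion.

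YRO2 (YBR054W) encodes a plasma membrane protein of the Hsp30 family. Its signal was 73.3, 50.0 and 87.8 in the double deletion, 238, 179 and 246 in the pbf1 deletion, 277, 291 and 465 in delta-pbf2 cells and 361, 254 and 366 in the wild type. The groups again did not overlap between the double deletion and the rest. The double deletion differed from the wild type by -2.23 ± 0.19 on the log2 scale, a 4.70-fold lower signal.

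FMP48 and CIS1 are linked to mitochondria. FMP48 (YGR052W) encodes a predicted protein kinase found with purified mitochondria. Its signal was 17.5, 17.2 and 21.9 in the double deletion, 55.8, 67.8 and 69.4 in the pbf1 deletion, 57.9, 46.2 and 74.7 in delta-pbf2 cells and 92.4, 69.0 and 102 in the wild type. The double deletion arrays were well below the others, and the wild type had the highest mean. The log2 difference was -2.21 ± 0.19, a 4.63-fold lower signal in the double deletion. These signals are close to the background threshold of the arrays (9.02 to 11.6), and with 16 added to every signal before the logarithm the difference was -1.56.

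CIS1 (YLR346C) encodes a factor that is induced through the drug resistance regulator Pdr3 when import into mitochondria is blocked, and that brings an ATPase to the import pore. Its signal was 31.0, 38.4 and 43.9 in the double deletion, 170, 112 and 131 in the pbf1 deletion, 177, 232 and 303 in delta-pbf2 cells and 182, 179 and 166 in the wild type. All 3 double deletion arrays lay below all others. The double deletion differed from the wild type by -2.23 ± 0.23 on the log2 scale, a 4.69-fold lower signal.

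**Figure D1:**
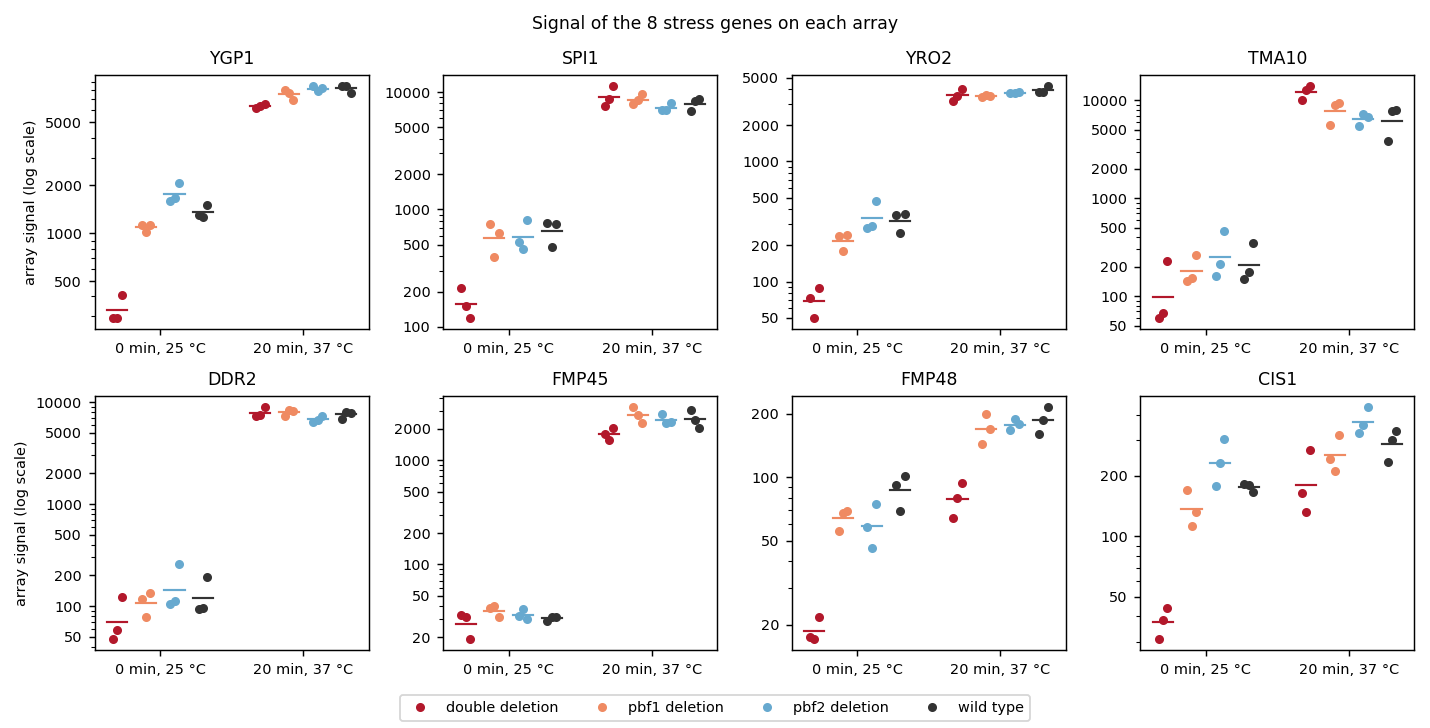
Array signal (log scale) of the 8 genes in the 4 strains before heat shock (0 min, 25 °C) and after it (20 min, 37 °C). Each point is 1 array and each line the geometric mean of 3 arrays. At 0 min the double deletion points lie below all others for YGP1, SPI1, YRO2, FMP48 and CIS1, and at 20 min for YGP1 and FMP48.

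TMA10 and DDR2 are general stress genes. TMA10 (YLR327C) encodes a small ribosome-associated protein of unknown function. Its signal at 0 min was 60.3, 67.3 and 227 in the double deletion, 144, 154 and 264 in the pbf1 deletion, 161, 211 and 464 in delta-pbf2 cells and 148, 176 and 353 in the wild type. In each strain the array numbered 3 was the highest, and the third double deletion array lay above the first 2 wild type arrays. The double deletion differed from the wild type by -1.11 ± 0.45 on the log2 scale. Without its array 3 the difference was -1.72. Taken by replicate number, the double deletion was lower than the wild type by -1.30, -1.39 and -0.64.

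DDR2 (YOL052C-A) encodes a small protein induced by many stresses through the stress element bound by Msn2 and Msn4. Its signal was 47.7, 57.6 and 122 in the double deletion, 116, 78.3 and 133 in the pbf1 deletion, 106, 113 and 257 in delta-pbf2 cells and 94.2, 96.7 and 191 in the wild type. The third array was again the highest of each strain, and the groups overlapped. The log2 difference of the double deletion from the wild type was -0.79 ± 0.32, and -1.20 without the double deletion array 3. By replicate number the differences were -0.98, -0.75 and -0.65.

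The array numbered 3 was the highest of its strain in all 4 strains for 5 of the 8 genes, YGP1, YRO2, TMA10, DDR2 and FMP48, against 4.91% of all genes tested. The labels give the number to triplicate cultures and do not say that it marks a shared day or batch. Its part in the differences was not tested.

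**Figure D2:**
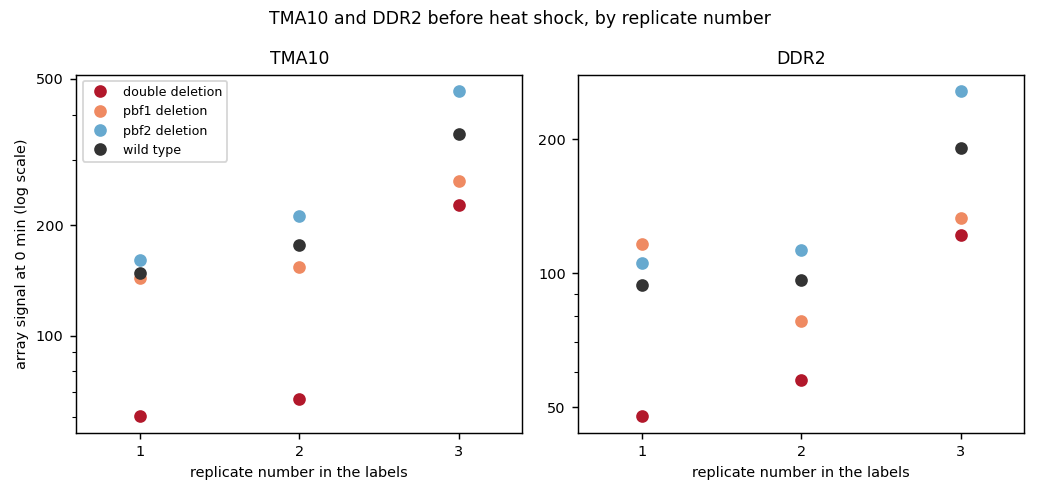
Array signal (log scale) of TMA10 and DDR2 at 0 min against the replicate number in the labels. Each point is 1 array; array 3 is the highest in each of the 4 strains, and the double deletion is the lowest strain at each number.

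FMP45 (YDL222C) encodes a membrane protein of the SUR7 family, found at eisosomes, which are furrows of the plasma membrane. Its signal at 0 min was 32.8, 31.3 and 19.3 in the double deletion, 38.3, 39.5 and 31.0 in the pbf1 deletion, 32.0, 37.1 and 29.8 in delta-pbf2 cells and 28.8, 31.1 and 31.0 in the wild type. The groups overlapped, and only the third double deletion array was low. The difference of the double deletion from the wild type was -0.16 ± 0.18 on the log2 scale with a 95% interval of -0.53 to 0.21, and 0.08 without that array. This comparison chose the genes, so the interval is a description and no test of FMP45 against the other genes.

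Among all 5395 genes tested, ordered from the lowest double deletion to wild type difference at 0 min, YRO2 was at place 8, CIS1 at 9, FMP48 at 10, SPI1 at 12 and YGP1 at 13. TMA10 stood at place 69, DDR2 at 158 and FMP45 at 1654. By the limma threshold that was used for all genes (Benjamini-Hochberg adjusted p at most 0.05), 5 of the 8 genes were lower, beside 16% of all genes, and arrays of the 2 strains did not overlap for the same number of genes, beside 23.7%. Arrays of the double deletion lay below all 9 other arrays for 10.5% of all genes. Nothing is read from these counts, since this comparison chose the genes.

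For all 8 genes the estimate for the double deletion lay below the level that the sum of the single deletion differences would give. On the log2 scale, the double deletion departed from the sum of the 2 single deletion differences by -2.12 ± 0.15 for YGP1, -2.27 ± 0.33 for CIS1, -1.73 ± 0.27 for YRO2, -1.70 ± 0.35 for SPI1 and -1.21 ± 0.27 for FMP48. For TMA10, DDR2 and FMP45 the departure was -1.14 ± 0.63, -0.89 ± 0.46 and -0.53 ± 0.25. The 95% intervals of TMA10 (-2.46 to 0.17) and DDR2 (-1.84 to 0.06) include 0. Over all 5395 genes the median departure was -0.01, and 122 genes passed the threshold as lower and 42 as higher. This contrast holds the comparison that chose the genes and was added after the data were seen, so it is a description.

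After 20 min at 37 °C the order of the strains differed from gene to gene. YGP1 remained below all other strains in the double deletion, with 6178, 6328 and 6530, against 7988, 7691 and 6945 in the pbf1 deletion, 8408, 7897 and 8171 in delta-pbf2 cells and 8444, 8447 and 7664 in the wild type. The difference had shrunk to -0.37 ± 0.11, a 1.29-fold lower signal than in the wild type. FMP48 also remained below, with 64.1, 80.0 and 94.4 in the double deletion, 144, 200 and 169 in the pbf1 deletion, 167, 188 and 178 in delta-pbf2 cells and 160, 188 and 215 in the wild type. Its log2 difference from the wild type was -1.25 ± 0.19, so the heat-shocked double deletion was near the level of the unstressed wild type (69.0 to 102).

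SPI1 and YRO2 no longer separated the strains. SPI1 reached 7665, 8730 and 11237 in the double deletion, against 7877, 8538 and 9550 in the pbf1 deletion, 6967, 7064 and 8108 in delta-pbf2 cells and 6842, 8345 and 8689 in the wild type. YRO2 reached 3194, 3518 and 4042 in the double deletion, 3416, 3584 and 3515 in the pbf1 deletion, 3724, 3691 and 3799 in delta-pbf2 cells and 3782, 3818 and 4247 in the wild type. Strains overlapped for both genes, and the differences of the double deletion from the wild type were 0.20 ± 0.25 for SPI1 and -0.14 ± 0.19 for YRO2.

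TMA10 ended higher in the double deletion. Its signal at 20 min was 10105, 12725 and 14026 in the double deletion, 5583, 8974 and 9501 in the pbf1 deletion, 5484, 7233 and 6760 in delta-pbf2 cells and 3887, 7799 and 7949 in the wild type. No array of another strain reached the lowest double deletion array, and the log2 difference from the wild type was 0.97 ± 0.45, or a 1.96-fold higher signal. The first array of each of the 4 strains was the lowest.

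DDR2 did not separate the strains at 20 min, with 7354, 7482 and 8905 in the double deletion, 7257, 8314 and 8196 in the pbf1 deletion, 6407, 6671 and 7311 in delta-pbf2 cells and 6901, 7972 and 7844 in the wild type. CIS1 had 164, 133 and 268 in the double deletion, 242, 210 and 320 in the pbf1 deletion, 326, 355 and 437 in delta-pbf2 cells and 234, 300 and 333 in the wild type. Its groups overlapped, and the log2 difference of the double deletion from the wild type was -0.67 ± 0.23.

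FMP45, which had started level, had a lower mean in the double deletion after heat shock. Its signal was 1807, 1560 and 2044 in the double deletion, 3232, 2709 and 2273 in the pbf1 deletion, 2767, 2290 and 2317 in delta-pbf2 cells and 3051, 2428 and 2039 in the wild type. The highest double deletion array lay just above the lowest wild type array, and the log2 difference was -0.46 ± 0.18. At 20 min the double deletion arrays lay below all 9 others for 2 genes, beside 23.8% of all genes, and above all 3 wild type arrays for 1 gene, beside 21.4%, from which nothing is read.

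**Figure D3:**
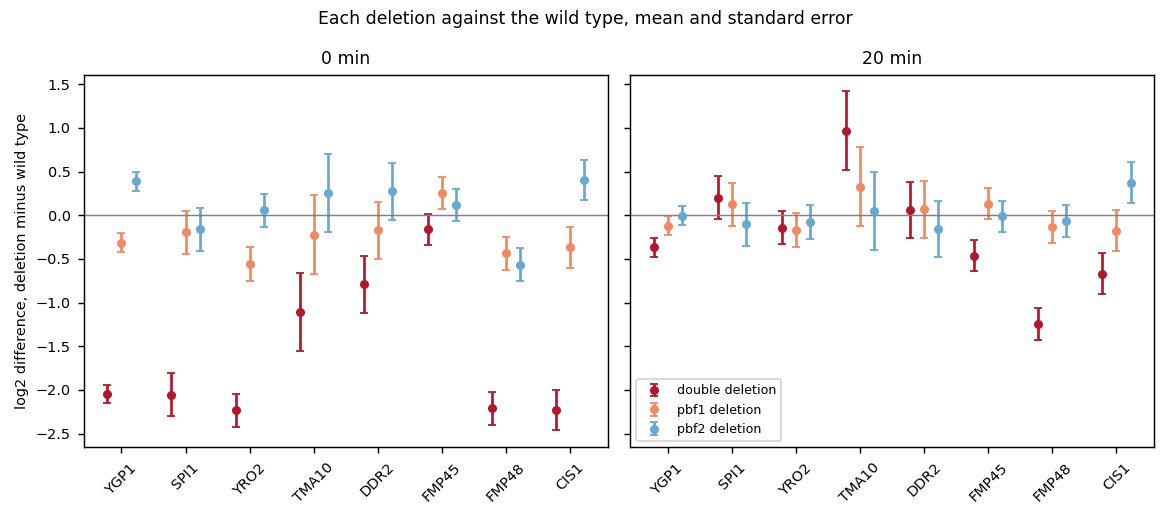
Log2 difference of each deletion strain from the wild type for the 8 genes at 0 min (left) and 20 min (right). Points are means of 3 arrays per strain and bars are limma standard errors. The double deletion lies near -2 for YGP1, SPI1, YRO2, FMP48 and CIS1 at 0 min, and between -1.25 and 0.97 for all 8 genes at 20 min.

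For all 8 genes, within each of the 4 strains, every array at 20 min lay above every array at 0 min. The share of all genes that do so was not counted, and the genes were listed as stress-induced, so nothing is read from this. Over all genes, 48.5% passed the threshold as higher at 20 min in the double deletion, 51.2% in the pbf1 deletion, 48.4% in delta-pbf2 cells and 51.0% in the wild type, and nothing is read from these shares for the 8 genes. With median centring 1977 genes rose and 2281 fell in the double deletion, against 2615 and 1667 as deposited, and all 8 genes still had a positive change in every strain. The size of the rise differed widely among them. FMP45 rose 66.2-fold in the double deletion and 81.7-fold in the wild type. DDR2 rose 114-fold in the double deletion and 62.8-fold in the wild type.

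TMA10 rose 125-fold in the double deletion and 29.7-fold in the wild type, SPI1 58.1-fold in the double deletion and 12.2-fold in the wild type, and YRO2 52.1-fold in the double deletion and 12.2-fold in the wild type. YGP1 rose 19.3-fold in the double deletion, against 6.04-fold in the wild type. FMP48 and CIS1 had the smallest rises. FMP48 rose 4.19-fold in the double deletion and 2.15-fold in the wild type, and CIS1 4.81-fold in the double deletion and 1.63-fold in the wild type. With arrays centred on the poly(A) spike-in controls, which moved the median heat shock change of all genes in the wild type to -0.71 from 0.27, the CIS1 change was -0.31 and -0.046 in the pbf1 and pbf2 deletion and -0.27 in the wild type. The FMP48 change was then 1.03 on the log2 scale in the double deletion, 0.20 in delta-pbf1 cells and 0.13 in wild type cells, where it was 0.60 with quantile normalization and 1.10 as deposited. In the authors' deposited table of log2 ratios, the rise of FMP48 was 0.93 in delta-pbf2 cells and 0.47 in wild type cells, and that of CIS1 was 1.81 in the double deletion and 0.41 in wild type cells, smaller than the changes found here (1.60, 1.10, 2.27 and 0.70). With quantile normalization these changes were 0.99, 0.60, 1.60 and 0.41. For other genes the table was not always lower, as for YGP1, at 4.42 in the authors' deposited table and 4.27 here in the double deletion.

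The rise in the double deletion minus the rise in the wild type, on the log2 scale, was 2.26 ± 0.35 for SPI1, 2.09 ± 0.27 for YRO2, 2.08 ± 0.63 for TMA10, 1.68 ± 0.15 for YGP1, 1.56 ± 0.33 for CIS1 and 0.97 ± 0.27 for FMP48. For DDR2 the difference was 0.85 ± 0.46 and for FMP45 it was -0.30 ± 0.25. By the values at both times, the larger rise of SPI1 and YRO2 went with a lower start and strains that overlapped at the end, that of YGP1 and FMP48 with a lower start and a lower end, that of CIS1 with a lower start and groups that overlapped at the end, and that of TMA10 with groups that overlapped at the start and double deletion arrays above all others at the end.

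The single deletions are the comparisons in which these genes could be tested, but they share the wild type arrays with the choice. A choice of genes that were low against those arrays can by itself make differences at 0 min negative. It can likewise make differences in rise positive, so nothing is read from the signs or medians below. At 0 min, 0 of the 8 genes passed the threshold in the pbf1 deletion (limma, lowest adjusted p = 0.462), beside 0.111% of all genes. Of the 8, 3 (YGP1, YRO2 and FMP48) had an unadjusted p under 0.05, as did 414 of all 5395 genes. The estimates lay between -0.56 for YRO2 and 0.25 for FMP45, and 7 of the 8 were negative. Their median was -0.27, beside -0.03 for all genes. YRO2 differed from the wild type by -0.56 ± 0.19 (adjusted p = 0.462 by limma) and was lower in 3 of 3 same-numbered arrays, by -0.60 to -0.50. In the pbf2 deletion 0 of 8 passed (lowest adjusted p = 0.249 by limma), beside 0.241% of all genes. An unadjusted p under 0.05 was found for 312 of all 5395 genes and for 2 of the 8.

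Those 2 went opposite ways in the pbf2 deletion. YGP1 had a difference of 0.39 ± 0.11 (adjusted p = 0.249 by limma), higher in 3 of 3 same-numbered arrays, and FMP48 one of -0.57 ± 0.19 (adjusted p = 0.513 by limma), lower in 3 of 3. Neither passed the threshold. The 95% intervals of all 8 genes reached at their widest from -1.15 to 0.71 in the pbf1 deletion and from -0.96 to 1.19 in the pbf2 deletion. For YGP1 the interval was -0.54 to -0.09 in the pbf1 deletion and 0.16 to 0.61 in the pbf2 deletion. The other genes of this low-start group had intervals of -0.96 to -0.16 for YRO2, -0.83 to -0.04 for FMP48, -0.85 to 0.12 for CIS1 and -0.70 to 0.32 for SPI1 in the pbf1 deletion.

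At 20 min, 0 of the 8 genes passed in the pbf1 deletion (limma, lowest adjusted p = 0.796), beside 0.63% of all genes, and 0 in the pbf2 deletion (limma, lowest adjusted p = 0.322), beside 13.3%. None of the 8 had an unadjusted p under 0.05 in either strain at that time, beside 583 of all genes in the pbf1 deletion and 1489 in the pbf2 deletion. Estimates lay between -0.18 and 0.33 in the pbf1 deletion and between -0.16 and 0.37 in the pbf2 deletion. The largest in the pbf2 deletion was CIS1, at 0.37 ± 0.23 (adjusted p = 0.322 by limma), higher in 3 of 3 same-numbered arrays.

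The rise on heat shock differed from that of the wild type for 0 of the 8 genes in the pbf1 deletion (limma, lowest adjusted p = 0.999), where 0.0% of all genes passed and 183 genes had an unadjusted p under 0.05. In the pbf2 deletion it was again 0 of 8 (limma, lowest adjusted p = 0.225), beside 1.71% of all genes. An unadjusted p under 0.05 was found for 813 of all 5395 genes and for 1 of the 8. That gene was YGP1, whose rise differed by -0.39 ± 0.15. With the replicate number as a block, the number of the 8 genes that passed stayed 0 in all 6 of these comparisons, and it also stayed 0 when any one array was left out.

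For 6 of the 8 genes a paralog on the array was examined. The paralogs were taken for their relation to these genes, but with earlier results of these data known. At 0 min SPS100, the spore wall paralog of YGP1, was at background on all arrays of all strains, so its strains are not compared. MRH1, a membrane protein related to YRO2, had 4369, 4651 and 5236 in the double deletion and 6658, 5856 and 6616 in the wild type. Its groups did not overlap, and the log2 difference was -0.43 ± 0.11 (adjusted p = 0.00883 by limma). With arrays centred on the hybridization controls it was -0.33 and on the spike-in controls, which moved the median of all genes to 0.26 from -0.05, it was -0.12, and it then missed the threshold (adjusted p = 0.191 and 0.934 by limma).

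YNL194C, the paralog of FMP45 in the SUR7 family, had 4.14, 9.92 and 6.97 in the double deletion, all at background, and 23.6, 17.8 and 29.6 in the wild type. Its signal was lower in the double deletion by at least 2.19-fold (adjusted p = 6.84e-05 by limma), where a bound is given because the double deletion has no level above background. Its call held under the other scalings but was lost with spike-in centring (adjusted p = 0.0604 by limma). SED1, a major cell wall protein and the paralog of SPI1, went the other way, with 7654, 8035 and 8455 in the double deletion and 6787, 5721 and 7403 in the wild type. It was higher by 0.29 ± 0.07 (adjusted p = 0.00691 by limma), but missed the threshold without wild type array 2 (0.18, adjusted p = 0.0559 by limma) and with spike-in centring (0.59, adjusted p = 0.924 by limma).

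HOR7, a small protein induced by osmotic stress and the paralog of DDR2, differed by -0.23 ± 0.08 in the double deletion (adjusted p = 0.0398 by limma), with 5711, 6127 and 6902 in the double deletion and 7180, 6946 and 7869 in the wild type. That call was lost under median centring (adjusted p = 0.156 by limma) and turned in sign with spike-in centring, to 0.072. It was also lost when any of 4 arrays was left out (adjusted p up to 0.182 by limma). STF2, a hydrophilin-like protein and the paralog of TMA10, had 1136, 1443 and 2403 in the double deletion and 1843, 2262 and 2889 in the wild type. Its difference was -0.54 ± 0.23 and did not pass (adjusted p = 0.1 by limma), although it did with the replicate number as a block (adjusted p = 0.0195 by limma) and without double deletion array 3 (-0.84, adjusted p = 0.00904 by limma). As for TMA10, array 3 was the highest in all 4 strains.

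At 20 min none of the 6 paralogs passed the threshold in the double deletion against the wild type as deposited, but with 16 added to each signal SPS100 (-0.57, adjusted p = 0.00558 by limma) and YNL194C (-0.39, adjusted p = 0.0465 by limma) did. On heat shock in the wild type 5 of the 6 rose and MRH1 fell by 0.48 ± 0.11 on the log2 scale (adjusted p = 0.00053 by limma). The MRH1 call was lost with quantile normalization (-0.20, adjusted p = 0.114 by limma), and that of SED1 with spike-in centring (0.15, adjusted p = 0.767 by limma), under which HOR7 turned to -0.059. In the single deletions none of the 6 passed at 0 min in either strain, and none had an unadjusted p under 0.05.

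**Figure D4:**
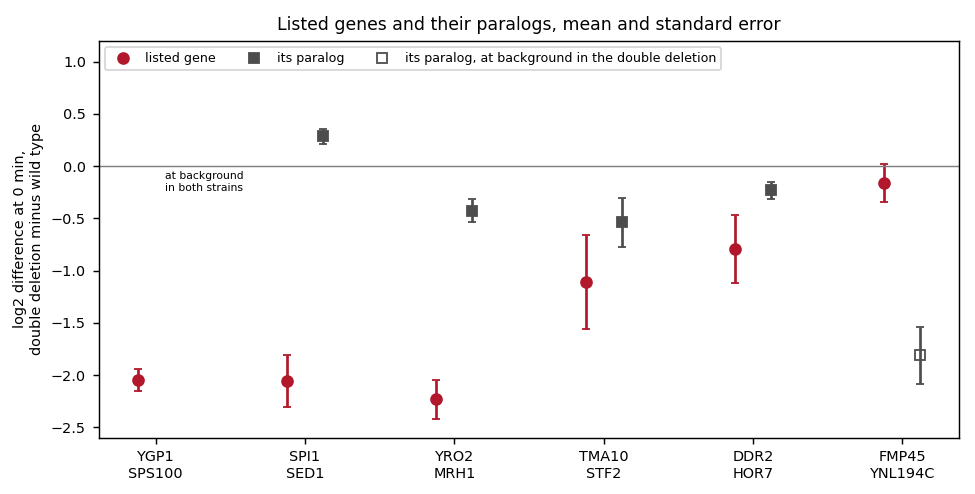
Log2 difference of the double deletion from the wild type at 0 min for 6 of the listed genes (circles) and their paralogs (squares), with limma standard errors, n = 3 arrays per strain. SED1 lies above 0 while SPI1 is near -2. SPS100 is not drawn because it was at background in both strains, and the open square marks YNL194C, at background in the double deletion.

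Other genes of the same regulators were counted from lists that exclude the 8 genes; GRE1 stands in both the Msn2 and Msn4 list and the Haa1 list. Of the 49 Msn2 and Msn4 stress genes tested, 22 were lower and 1 was higher in the double deletion, set against wild type cells at 0 min, with a median of -0.49 beside -0.05 for all genes. Over all genes, 16% were lower and 8.47% higher, or 862 and 457 genes, where median centring gave 651 and 630 and hybridization control centring 207 and 252. XBP1, a repressor induced by stress, differed by -1.43 ± 0.36 (adjusted p = 0.00611 by limma), and DDR48, a stress protein rich in asparagine and serine, by -1.31 ± 0.13 (adjusted p = 6.51e-07 by limma). The cytosolic chaperone SSA3 was the one that was higher, by 0.40 ± 0.14 (adjusted p = 0.0493 by limma). With hybridization control centring 11 of the 49 were lower, at a median of -0.40. With spike-in centring 0 genes of any of the 5 lists passed, and the median of these 49 was -0.19, beside 0.26 for all genes.

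At 20 min 15 of these 49 genes were lower and 1 was higher in the double deletion, with a median of -0.09, equal to that of all genes, where 32.4% were lower and 20.9% higher (1750 and 1130 genes; 946 and 960 with hybridization control centring). The share of the list that was lower, 30.6%, was near that of all genes. On heat shock 48 of the 49 rose in the double deletion and 48 in the wild type. The rise was larger in the double deletion for 8 and smaller for 6, beside 15% and 12.8% of all genes (809 and 689; 628 and 1010 with median centring), with a median difference of 0.27. Of the genes named, DDR48 had a larger rise, by 0.92 ± 0.19 (adjusted p = 0.000887 by limma). XBP1 did not pass, at 1.05 ± 0.50 (adjusted p = 0.131 by limma).

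Among 6 genes tied to Haa1, 2 were lower at 0 min and none was higher, beside 16% and 8.47% of all genes. These were PHM8, a nucleotide phosphatase, at -0.95 ± 0.15 (adjusted p = 0.000175 by limma), and HAA1 itself, at -0.48 ± 0.12 (adjusted p = 0.00509 by limma). The median of the 6 was -0.50, beside -0.05 for all genes, and 1 was lower with hybridization control centring. HAA1 was also lower at 20 min, by -0.51 ± 0.12 (adjusted p = 0.001 by limma). At that time 4 of the 6 were lower, beside 32.4% of all genes, whereas PHM8 did not pass (-0.16 ± 0.15, adjusted p = 0.387 by limma).

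The drug resistance genes of Pdr1 and Pdr3, the group to which CIS1 belongs, moved in both directions. Of 14, 5 were lower and 4 were higher in the double deletion at 0 min, beside 16% and 8.47% of all genes. With hybridization control centring 3 were lower and 2 higher. The median was -0.11, beside -0.05 for all genes. With spike-in centring it turned to 0.20, beside 0.26 for all genes. RSB1, a sphingoid base transporter, differed by -1.72 ± 0.39 (adjusted p = 0.00347 by limma) and the transporter PDR15 by -0.68 ± 0.12 (adjusted p = 0.000478 by limma). The transporter PDR10 was higher by 0.47 ± 0.08 (adjusted p = 0.000308 by limma) and the acyltransferase ICT1 by 0.42 ± 0.12 (adjusted p = 0.0124 by limma). At 20 min 9 of the 14 were lower and 1 was higher, beside 32.4% and 20.9% of all genes. The median was then -0.28, beside -0.09 for all genes. Both PDR10 (-0.27 ± 0.08, adjusted p = 0.00871 by limma) and ICT1 (-0.32 ± 0.12, adjusted p = 0.026 by limma) were lower at that time.

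Of 7 genes of the SUR7 family and the eisosome, the group to which FMP45 belongs, 5 were lower and none was higher in the double deletion at 0 min. Over all genes 16% were lower and 8.47% higher. The median of the 7 was -0.36, beside -0.05 for all genes. Beside YNL194C the 5 lower genes included PUN1, a membrane protein of this family, at -0.59 ± 0.14 (adjusted p = 0.00359 by limma). With quantile normalization 3 of the 7 were lower, and with hybridization control centring 2.

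Among 18 genes of the protein kinase A pathway and other stress regulators 4 (22.2%) were lower, beside 16% of all genes, and none was higher in the double deletion, and 2 were lower with hybridization control centring. The median was -0.16, beside -0.05 for all genes. With spike-in centring it turned to 0.15, beside 0.26 for all genes. TPK2, a catalytic subunit of protein kinase A, differed by -0.52 ± 0.12 (adjusted p = 0.0031 by limma), and PDE1, a cyclic AMP phosphodiesterase, by -0.47 ± 0.11 (adjusted p = 0.00389 by limma). In the single deletions at 0 min, 0 genes of any of these 5 lists passed by limma. At an unadjusted p under 0.05 there were 7 Msn2 and Msn4 genes and 2 Pdr1 genes in the pbf1 deletion, 4 Msn2 and Msn4 genes and 6 Pdr1 genes in the pbf2 deletion, and none of the other lists. Of all 5395 genes, 414 in the pbf1 deletion and 312 in the pbf2 deletion met that cutoff.

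**Figure D5:**
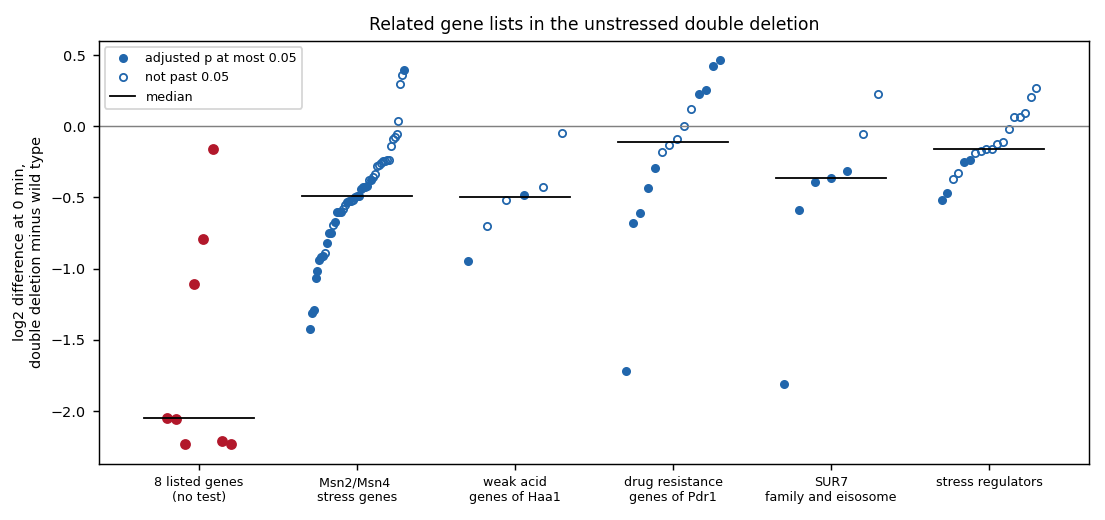
Log2 difference of the double deletion from the wild type at 0 min for the 8 listed genes and for 5 lists of related genes. Each point is 1 gene, filled blue where the adjusted p by limma was at most 0.05, and black lines are medians. The Msn2 and Msn4 list has its median at -0.49 and the Pdr1 list at -0.11, while 5 of the 8 listed genes lie near -2.

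The genes varied together to different degrees. Over the 12 arrays at 0 min, the log2 signal of a gene had a Pearson correlation with the mean of the other 7 of 0.98 for YRO2, 0.97 for YGP1, 0.95 for CIS1, 0.91 for FMP48 and 0.89 for SPI1. It was lower for DDR2 (0.755) and TMA10 (0.740) and lowest for FMP45 (0.215). These values share the arrays and the strain differences that chose the genes, and are given as a description.

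Outside the 8 genes, those with the most similar pattern over all 24 arrays were APE1 and PHM8 (Pearson r = 0.995 each with the mean of the 8 genes), GAD1 (0.994), COX5B (0.993) and ECM21 (0.993), among genes above background on all arrays. APE1 encodes a vacuolar aminopeptidase and GAD1 a glutamate decarboxylase. Over the 12 arrays at 0 min the most similar were YEL073C (0.990), BDH2 (0.980), MLF3 (0.973), PDE1 (0.971) and PST1 (0.968), a cell wall protein. PST1 was lower in the double deletion at 0 min by -1.32 ± 0.16 and at 20 min by -1.46 ± 0.16 (adjusted p = 2.46e-07 by limma). As for FMP48, the lower level was present at both times. YEL073C, BDH2, MLF3 and PDE1 also passed the threshold as lower at 20 min, beside 32.4% of all genes. Genes picked for likeness to the list repeat its differences at 0 min by construction.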

How the data were processed

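The authors deposited 1 linear signal intensity per probe set and array, made with MAS5 (GeneChip Operating Software 1.4), per the submitters' processing notes and file headers. The trimmed mean (2% at each end) was 500.3 to 500.4 on every array. The authors also deposited a table of log2 ratios of 20 min over 0 min, with false discovery rates, a form of p-value. The sources used here do not say how its ratios were made.

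Of 10928 probe sets, 7244 carry 1 gene symbol in the platform annotation, 1 carries several and 3683 none. Those of 5498 name S. cerevisiae genes, and the 1746 others gave the background: a signal above their 95th percentile on an array (9.02 to 11.6) counted as above background. For 47 genes with several probe sets the one with the highest mean was used, which left 5449 genes. Genes whose mean log2 signal exceeded 2.35 were tested (5395). The median gene signal per array was 453 to 572, and 96.7 to 99.1% of genes were above background. Names come from the annotation, updated for 12 symbols. No build is named, so no coordinates are given. No sequence of these genes was used here.

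The log2 of the deposited signals, with no pseudocount, was fitted over all 24 arrays with limma 3.58.1 (R 4.3.3). The fit had 8 group means, 16 residual degrees of freedom and eBayes moderation with a trend. P-values were two-sided, with Benjamini-Hochberg adjustment over 5395 genes in each comparison and a threshold of 0.05. The fit was tested on simulated data. Tables and plots used Python 3.11.15. The number of arrays (3 per group, which are separate cultures per the labels) limits the precision.

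The 8 genes and the lists were chosen with earlier results of these data known. Genes named are the 8, their paralogs, the checks TOD6, DOT6 and URA3, the 2 most positive and 2 most negative genes per list past the threshold at 0 min, and the 5 most alike genes.

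The parts of a culture at 0 and 20 min pair the arrays, per the labels' protocols; their deviations from the group means correlated at -0.041 to 0.186. Same-numbered arrays of different strains correlated at -0.031 to 0.646, and above 0.1 in all 3 pairs of each single deletion with the wild type at 20 min. Alternatives were 4 other scalings, a pseudocount of 16, 2 other filters, no trend, blocks by culture and by number, and leaving out each array.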

Additional observations from a re-analysis of the deposited data

Results flagged for a closer look

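A gene is given here because its rise on heat shock differed between the double deletion and the wild type by limma's test of that difference, adjusted over 5395 genes. The 8 stress genes are left out, since this difference chose them. Among the paralogs, the rise of YNL194C was larger in the double deletion by 1.41 ± 0.38 on the log2 scale (adjusted p = 0.00828 by limma), but the 3 double deletion arrays at 0 min were at background, and with 16 added to each signal the difference was 0.39 (adjusted p = 0.219 by limma). SED1 rose less in the double deletion, by -0.34 ± 0.10 (adjusted p = 0.0177 by limma), and missed the threshold without wild type array 2 at either time and with hybridization control centring (adjusted p = 0.0863 by limma). Of the listed genes, the rise was larger in the double deletion by 0.92 ± 0.19 for DDR48 (adjusted p = 0.000887 by limma) and by 0.78 ± 0.22 for PHM8 (adjusted p = 0.0105 by limma). ICT1 and PDR10 changed the other way: both were higher in the double deletion at 0 min and lower at 20 min. Their difference in rise was -0.74 ± 0.17 for ICT1 (adjusted p = 0.00208 by limma) and -0.73 ± 0.11 for PDR10 (adjusted p = 6.58e-05 by limma). With spike-in centring none of these 6 differences in rise passed the threshold.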

How the results depend on the processing

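In the single deletions the number of the 8 genes past the threshold stayed 0 under all alternatives, in all 6 comparisons. The other counts of the 8 genes come from comparisons that chose them and are no test. Under spike-in centring, the count was 1, against 4 as deposited, for the double deletion against the wild type at 20 min, 0, against 6, for the difference in rise, and 5 under both at 0 min. Leaving out 1 array gave 2 to 4 at 20 min, 5 to 7 for the difference in rise and 5 to 7 at 0 min, and for heat shock 7 to 8 in the pbf2 deletion and 8 in the other strains. As deposited, 53.4% of all genes passed at 20 min, 27.8% for the difference in rise and 24.4% at 0 min. For heat shock 78.5% to 81.6% of all genes passed. Under spike-in centring 352 of 5395 genes passed at 20 min, 6 for the difference in rise and 26 at 0 min. Nothing is read from the counts of the 8 genes. Of called values of the 8 genes and their paralogs, and of changes of the 8 genes beyond 2 standard errors, those that turned did so under spike-in centring: CIS1 on heat shock (-0.27 in the wild type, -0.31 in the pbf1 and -0.046 in the pbf2 deletion), HOR7 (0.072 in the double deletion at 0 min, and on heat shock -0.059 in the wild type and -0.29 in the pbf1 deletion) and SED1 on heat shock (-0.10 in the pbf1 and -0.26 in the double deletion). This centring moves a comparison by the same amount for all genes. For heat shock in the wild type the median of all genes went to -0.71 from 0.27. Why the controls differed between arrays was not tested. Values that were not called or lay nearer to 0 changed sign in 160 further cases, under several settings.

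Counts over all genes moved more. For the double deletion at 0 min, 1319 genes became 459 with hybridization control centring and 26 with spike-in centring; at 20 min 2880 became 1906 and 352; for its difference in rise 1498 became 703 and 6. For the pbf1 deletion at 0 min 6 became 2 and 1, and at 20 min 34 became 3 and 1, with 85 after quantile normalization. For the pbf2 deletion at 0 min 13 became 6 and 2, with 5 after quantile normalization and 6 without a trend; at 20 min 715 became 269 and 1. Its difference in rise gave 92, then 3 and 0, with 53 after median centring and 59 without a trend. Spike-in centring left 2512 of 4352 genes for heat shock in the wild type, 1974 of 4235 in the pbf2 deletion and 2854 of 4282 in the double deletion. With the replicate block by number, the counts were 107 for the pbf1 deletion at 20 min and 264 for the difference in rise of the pbf2 deletion. Deviations of same-numbered arrays of the pbf1 deletion and the wild type correlated at 0.27 to 0.646 at 20 min. The labels do not say that these numbers pair arrays of different strains. The block by culture moved no count by over 1.5 times.

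Leaving out 1 array gave 897 to 1281, 2 to 7 and 3 to 9 genes at 0 min for the double, pbf1 and pbf2 deletion, 2552 to 2797, 11 to 122 and 280 to 1057 at 20 min, and 1321 to 1500, 0 and 25 to 332 for the difference in rise. For heat shock it gave 4124 to 4234, 4245 to 4347, 4035 to 4125 and, in the wild type, 4182 to 4346. Signals of FMP48 near background limit its fold change.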

Other observations

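The neighbours of the 8 genes on the chromosome were examined as genes the list did not choose. Of 16 neighbouring protein-coding genes, 14 were tested, and 4 were lower and 1 was higher in the double deletion, set against wild type cells at 0 min, by limma, beside 16% and 8.47% of all genes. Their median was -0.09. YLR345W, next to CIS1, differed by -0.70 ± 0.17 (adjusted p = 0.00462 by limma), and YBR053C, next to YRO2, by -0.45 ± 0.09 (adjusted p = 0.00093 by limma). YLR326W, next to TMA10, and AIM39, next to DDR2, were the other two, and SPE2, on the other side of DDR2, was higher by 0.19 ± 0.06 (adjusted p = 0.0203 by limma). The genes named in this paragraph were singled out after their values were seen. Of the 8 genes, 2 lie on a chromosome that holds TOD6, DOT6 or URA3, and the nearest is 63 genes away.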
